A study of Bos taurus with 32 samples.

Results

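Gene expression in the livers of dairy cows fed for high energy intake was compared between early lactation, at 9 d after calving, and late pregnancy, about 8 d before calving was due. These 11 arrays, 6 from HIGH 9 d and 5 from HIGH -8 d, are all arrays of the 32 in the series that carry those labels. Both groups are Ayrshire cows assigned to the high-energy diet (HIGH) for the 6 weeks up to the day calving was due, and the only labelled difference between them is the day of the biopsy. The same 5 cows, numbered 432, 439, 460, 462 and 529, gave a biopsy on both days, and cow 512 is represented at 9 d but by no -8 d array analysed here. Cows on a controlled-energy diet (CON; 6 arrays at 9 d and 5 at -8 d) and the 6 HIGH arrays taken at 1 d after calving were used for comparison, and all 32 arrays shared 1 estimate of the spread. All 24016 probe sets other than controls were tested, and values are log2 values after RMA, an array normalisation that places all arrays on one distribution. The day of calving, the start of milk production and any change of feed lie between the biopsies, and their parts cannot be told apart.

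Around calving the liver of a dairy cow turns to making glucose for milk lactose, oxidises fatty acids released from fat stores, and exports lipid as lipoprotein. Growth hormone drives fat release at this time while the liver output of insulin-like growth factor falls, a state called uncoupling of the somatotropic axis. Calving is also followed by an acute phase response, in which hepatocytes raise plasma proteins such as haptoglobin and lower others such as hormone carriers. The liver can renew hepatocytes by division, a process that runs through DNA replication, mitosis and cytokinesis.

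No array stood apart: the mean correlation of each HIGH 9 d and HIGH -8 d array with the others of its group was 0.991 to 0.993. The mean of 15 hepatocyte markers was 13.16 to 13.28 at 9 d, against 13.21 to 13.26 at -8 d. The 3′ minus 5′ signal of the elongation factor 1 alpha control probes, a measure of RNA length, averaged -0.808 ± 0.114 at 9 d (SD, n = 6) and -0.65 ± 0.106 at -8 d (SD, n = 5). Those ranges overlapped (-0.94 to -0.65 at 9 d, against -0.75 to -0.47 at -8 d). For the GAPDH controls it was 0.593 ± 0.0734 at 9 d and 0.55 ± 0.08 at -8 d. The part of RNA length in the results was not tested.

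At 9 d the livers held more RNA of cell division genes, cholesterol synthesis genes and the pyruvate carboxylase gene PC than before calving, and less of single genes such as GADD45B, BHLHE40, IGFBP3, TTR and CGN1. By limma's test with a Benjamini-Hochberg adjusted p under 0.05, 855 of 24016 probe sets changed (3.56%), 583 of them up (2.43%) and 272 down (1.13%). Of these, 209 rose and 69 fell by at least 1.5-fold. With 1 probe set for each of 9155 named genes, 469 genes changed (5.12%), 354 up (3.87%) and 115 down (1.26%). Where a gene is given as mean ± SD, n = 6 at 9 d and n = 5 at -8 d. The words rose and fell below are used only of genes past that threshold. Over all 9155 genes the 6 values at 9 d and the 5 at -8 d did not overlap in 323 that were higher at 9 d (3.53%) and 128 that were lower (1.4%). An unadjusted p under 0.05 was reached by 20.4% of all genes, in either direction. The gene lists below and their members were chosen with earlier results of these data known. Their counts are descriptions beside these shares of all genes.

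**Figure D1:**
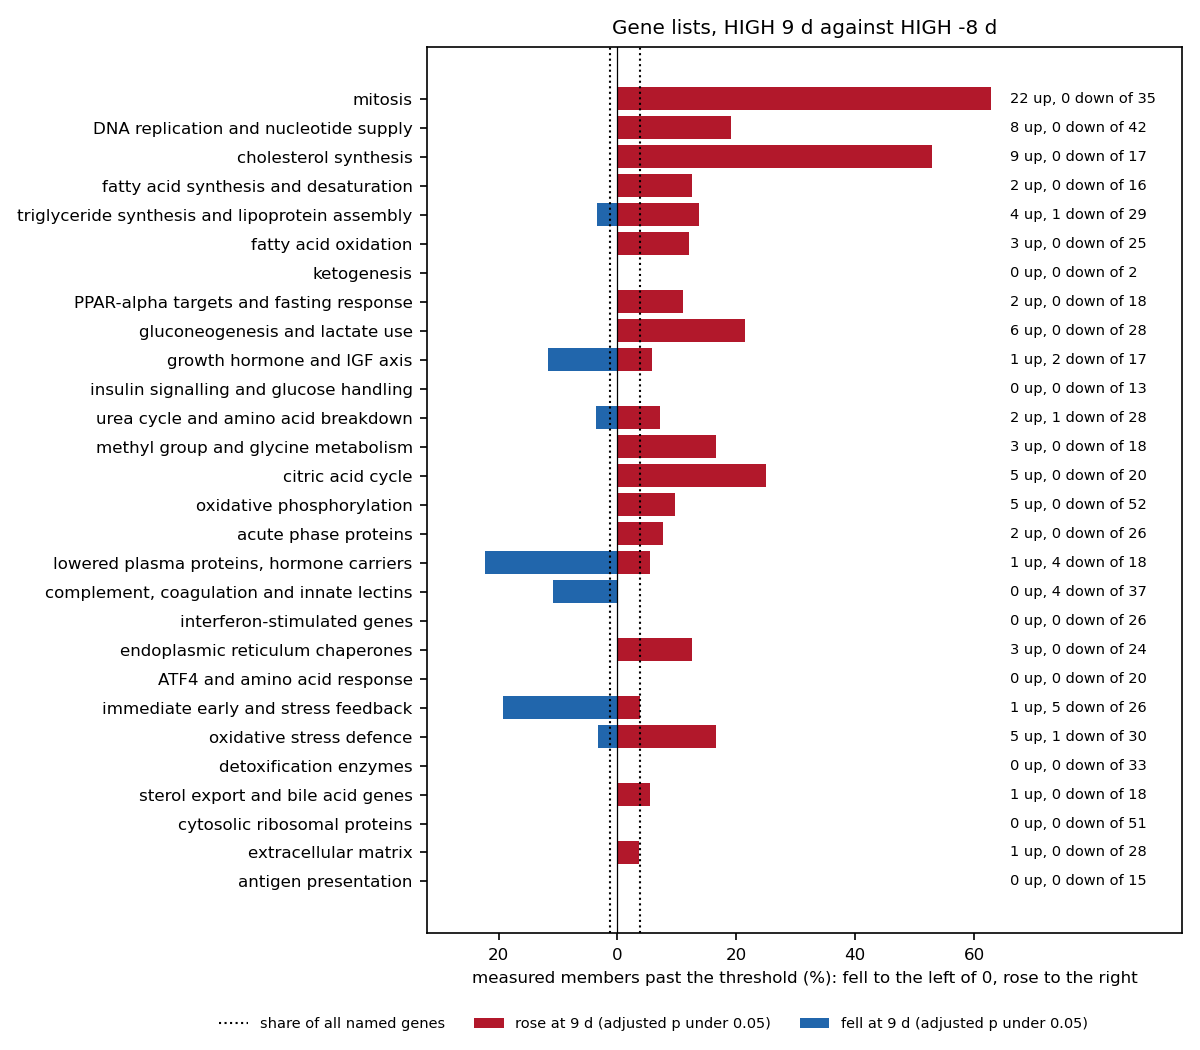
Share of the measured members of 28 gene lists that rose (right of 0, red) or fell (left of 0, blue) at HIGH 9 d against HIGH -8 d, with counts at the right; dotted lines mark the shares of all genes, 3.87% up and 1.26% down. Mitosis (22 of 35) and cholesterol synthesis (9 of 17) have the longest bars of the 28 lists.

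Among genes that were higher at 9 d in all 5 cows with both days, 10 of the 15 largest rises were of mitosis or DNA replication genes. Of 35 measured mitosis genes, 22 rose and 0 fell, against 3.87% of all genes up, and the median log2 change was 0.87 over the list and 0.0039 over all genes. All 35 lay above 0. CKAP2, a protein of the mitotic spindle, ran from 7.56 to 9.10 in the HIGH 9 d arrays (median 8.20), against 6.28, 6.04, 4.43, 5.43 and 6.04 in the HIGH -8 d arrays. Every 9 d value lay above every -8 d value (log2 change 2.52, SE 0.41, adjusted p = 0.000846), a difference of 5.72-fold. CDK1, the kinase that starts mitosis, ran from 6.39 to 7.57 in the HIGH 9 d arrays (median 6.75), against 4.80, 5.42, 4.88, 5.05 and 5.03 in the HIGH -8 d arrays. Its lowest 9 d value was again above its highest -8 d value (log2 change 1.79, SE 0.33, adjusted p = 0.00181). The other mitosis genes with the smallest p covered the steps from spindle to anaphase. STMN1, which destabilises microtubules, averaged 9.61 ± 0.55 at 9 d and 7.62 ± 0.49 at -8 d (log2 change 1.97, SE 0.35, adjusted p = 0.00135). BIRC5, a member of the chromosomal passenger complex, rose by 1.95 (adjusted p = 0.00173), and UBE2C, which passes ubiquitin to the anaphase-promoting complex, by 1.99 (adjusted p = 0.00206). The spindle factor TPX2 rose by 1.28 (adjusted p = 0.00282) and NUSAP1, which bundles spindle microtubules, by 1.73 (adjusted p = 0.00299). Among the 15 largest rises were also ECT2, an activator of cytokinesis (1.75), the checkpoint kinase BUB1 (1.58), the kinetochore subunit SPC24 (1.67) and SHCBP1 (1.74). C5H12orf75 was another of the 15, with a log2 change of 2.10 to 2.87 in the alternative fits. It kept its call in each of 17 fits that left out 1 array or cow. In a biopsy, more cells of a dividing kind and more RNA per cell cannot be told apart.

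**Figure D2:**
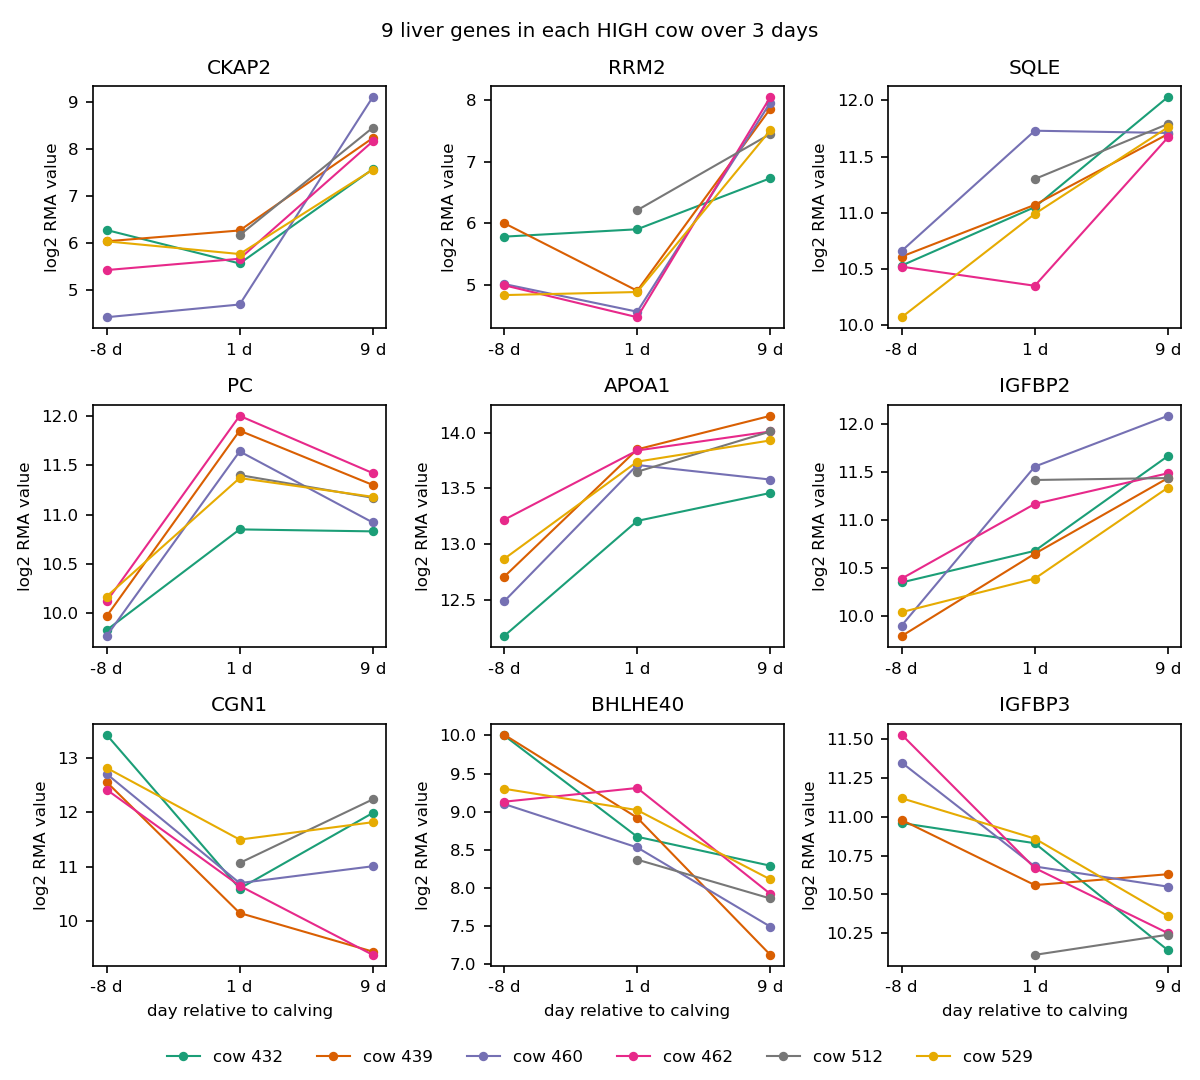
Log2 RMA value of 9 genes (vertical axes, a range of its own in each panel) in each HIGH cow on the 3 biopsy days, in order from before calving (-8 d); a line joins the days of 1 cow, and cow 512 has no -8 d point. CKAP2 and RRM2 lay above every -8 d value at 9 d, while their 1 d values were mixed with those of -8 d; PC and APOA1 already lay higher at 1 d than at -8 d in every cow with both days.

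The size of the mitosis rise differed between cows. The mean change over the 35 genes was 0.43 in cow 432, 0.84 in cow 439, 1.88 in cow 460, 1.02 in cow 462 and 0.64 in cow 529. Cow 460 had the lowest CKAP2 value of the -8 d arrays and the highest of the 9 d arrays. Without that cow 7 of the 35 passed the test, with a median log2 change of 0.71. Without cow 462 the count was 10 (median 0.84) and without cow 439 it was 13 (median 0.93). CKAP2, STMN1, BIRC5, CDK1, UBE2C, TPX2 and NUSAP1 passed in every fit that left out 1 array or 1 cow. Where only probe sets with a mean of at least 6 were tested, 13 of the 35 were left and 7 of those rose.

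Of 42 measured genes of DNA replication and nucleotide supply, 8 rose and 0 fell (19.0%, against 5.12% of all genes). The median log2 change was 0.32. RRM2, the small subunit of the ribonucleotide reductase that makes deoxynucleotides, ran from 6.73 to 8.05 in the HIGH 9 d arrays (median 7.68), against 5.78, 6.00, 5.01, 4.99 and 4.83 in the HIGH -8 d arrays. Its groups did not overlap (log2 change 2.25, SE 0.38, adjusted p = 0.00096). PCLAF, which binds the replication clamp, averaged 8.08 ± 0.62 at 9 d and 5.60 ± 0.74 at -8 d (log2 change 2.46, SE 0.46, adjusted p = 0.0023). Thymidine kinase TK1 (0.82, adjusted p = 0.00315), thymidylate synthase TYMS (1.17, adjusted p = 0.00671), the dUTPase DUT (0.97, adjusted p = 0.0171) and the large reductase subunit RRM1 (0.35, adjusted p = 0.0176) rose as well. A second TYMS probe set changed by 0.07 and did not pass. DUT lost its call in 6 and RRM1 in 7 of 17 fits that left out 1 array or cow (adjusted p up to 0.108 and 0.0966). Without cow 460 the count of 8 became 3, and without cow 439 or cow 462 it was 4 in each case. Among genes chosen after their values were seen, CDKN2C, an inhibitor of the kinases that open the cell cycle, averaged 6.87 ± 0.38 at 9 d and 5.34 ± 0.25 at -8 d (log2 change 1.52, SE 0.18, adjusted p = 1.12e-05). The partner of those kinases, cyclin D1 (CCND1), rose by 0.93 (adjusted p = 0.00849).

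Few members of either list had risen 1 d after calving. Between HIGH 1 d and HIGH -8 d the test called 3982 probe sets (16.6%), with 2090 higher at 1 d (8.7%) and 1892 lower (7.88%). It called 1974 genes (21.6%), which were 12.8% of all genes higher and 8.78% lower. In that comparison 0 of the 35 mitosis genes and 3 of the 42 replication genes rose. Between HIGH 9 d and HIGH 1 d it called 2195 probe sets (9.14%), with 1064 higher at 9 d (4.43%) and 1131 lower (4.71%). By gene there were 1128 calls (12.3%), 6.01% of all genes higher and 6.31% lower. There 27 of 35 and 12 of 42 rose. CKAP2 averaged 5.64 at -8 d, 5.69 at 1 d and 8.18 at 9 d, and RRM2 averaged 5.32, 5.15 and 7.59 on the same days. These comparisons share arrays, so their values are set side by side only.

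Genes chosen after their values were seen also covered the cytoskeleton and the nuclear envelope, where 6 of 13 tubulin and lamin genes rose. LMNA, which encodes the A-type lamins, averaged 8.38 ± 0.41 at 9 d and 7.42 ± 0.22 at -8 d (log2 change 0.97, SE 0.15, adjusted p = 0.000641). LMNB1 rose by 0.88 (adjusted p = 0.00669) and the tubulin TUBB by 0.81 (adjusted p = 0.00952). Other rises chosen in this way were GPC3, a cell surface proteoglycan (1.28, adjusted p = 0.00534), TGFB2, a transforming growth factor (1.28, adjusted p = 9.89e-05), and MFSD2A, a lysophospholipid transporter (1.31, adjusted p = 0.025). TGFB2 averaged 5.85 ± 0.18 at 9 d and 4.58 ± 0.07 at -8 d.

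Cholesterol synthesis was the list with the largest share of risers after mitosis. Of 17 measured enzymes, 9 rose and 0 fell (52.9%, against 5.12% of all genes), 16 lay above 0, and the median log2 change was 0.42. HMGCS1, which makes the precursor of mevalonate, ran from 12.94 to 13.47 in the HIGH 9 d arrays (median 13.32), against 11.92, 11.84, 12.29, 11.75 and 11.74 in the HIGH -8 d arrays. The 9 d and -8 d values of HMGCS1 did not overlap (log2 change 1.37, SE 0.28, adjusted p = 0.00453). SQLE, the squalene epoxidase, ran from 11.67 to 12.03 in the HIGH 9 d arrays (median 11.73), against 10.53, 10.61, 10.66, 10.52 and 10.07 in the HIGH -8 d arrays. The 9 d values of SQLE were all above its -8 d values (log2 change 1.29, SE 0.18, adjusted p = 0.000178), a difference of 2.45-fold. FDFT1, the squalene synthase, rose by 1.16 (adjusted p = 0.000641) and the lanosterol demethylase CYP51A1 by 1.12 (adjusted p = 0.00118). FDPS, which makes farnesyl diphosphate, rose by 0.92 (adjusted p = 0.00298). The mevalonate enzymes MVK (0.54, adjusted p = 0.0036) and MVD (0.51, adjusted p = 0.00392) rose less. Between 8 and 9 of the 17 passed in each fit that left out 1 array or 1 cow, and the mean change over the list was 0.32 to 0.75 in the 5 cows.

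Most of the cholesterol synthesis enzymes rose between 1 d and 9 d. At 1 d against -8 d, 2 of the 17 rose and 4 fell (35.3%, against 21.6% of all genes). At 9 d against 1 d 14 rose and 0 fell (82.4%, against 12.3% of all genes). SQLE averaged 10.48 at -8 d, 11.08 at 1 d and 11.78 at 9 d. FDPS averaged 9.89, 9.84 and 10.80 on the same days. Of 18 sterol export and bile acid genes 1 rose and 0 fell. It was SCARB1, the receptor for high-density lipoprotein (log2 change 0.40, SE 0.09, adjusted p = 0.00937). The sterol transporter ABCG8 changed by -1.30 without passing (adjusted p = 0.0765), as did CYP7A1, the first enzyme of bile acid synthesis (0.73, adjusted p = 0.291). SOAT2, which esterifies cholesterol, rose by 0.81 (adjusted p = 0.0361) and was chosen after its value was seen.

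Of 16 measured fatty acid synthesis and desaturation genes, 2 rose and 0 fell, with a median log2 change of 0.08. The 2 were 12.5% of the list, against 5.12% of all genes called in either direction. FASN, the fatty acid synthase, ran from 8.43 to 9.54 in the HIGH 9 d arrays (median 8.81), against 7.60, 7.87, 7.96, 7.86 and 7.89 in the HIGH -8 d arrays. No FASN value at -8 d reached those at 9 d (log2 change 1.04, SE 0.24, adjusted p = 0.0124). ACLY, which supplies acetyl groups from citrate, rose by 0.42 (adjusted p = 0.0248). The desaturases did not pass: SCD changed by -0.87 (adjusted p = 0.201) and FADS2 by -0.65 (adjusted p = 0.381). Both had fallen at 1 d, SCD by 2.86 and FADS2 by 3.00. SCD averaged 11.03 at -8 d, 8.12 at 1 d and 10.11 at 9 d. THRSP, a thyroid-responsive regulator of lipogenesis (-0.43, adjusted p = 0.796), and ACSS2, which activates acetate (0.05, adjusted p = 0.956), did not pass either. ACLY lost its call in 10 of 17 fits that left out 1 array or cow (adjusted p up to 0.116), and FASN in 3 (up to 0.0855).

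The list of triglyceride and lipoprotein genes had 29 measured members, of which 4 rose and 1 fell (17.2%, against 5.12% of all genes). APOA1, the main protein of high-density lipoprotein, ran from 13.46 to 14.15 in the HIGH 9 d arrays (median 13.97), against 12.18, 12.71, 12.49, 13.22 and 12.87 in the HIGH -8 d arrays. The groups did not overlap (log2 change 1.16, SE 0.20, adjusted p = 0.00102). APOA4, a lipoprotein protein linked in mice to triglyceride export by the liver, ran from 10.25 to 13.05 in the HIGH 9 d arrays (median 12.34), against 9.35, 11.43, 9.69, 11.01 and 10.73 in the HIGH -8 d arrays. Those groups overlapped, and APOA4 was higher at 9 d in all 5 cows with both days (log2 change 1.54, SE 0.38, adjusted p = 0.0184). APOC2, the activator of lipoprotein lipase (0.39, adjusted p = 0.0381), and FITM2, a lipid droplet protein (0.56, adjusted p = 0.0456), rose too. APOH, a lipid-binding plasma protein, fell by 0.12 (adjusted p = 0.0468). APOM, which carries sphingosine phosphate, rose by 0.78 (adjusted p = 0.0251) and was chosen after its value was seen. APOA1 passed in every fit that left out 1 array or cow. APOA4 lost its call in 7 of the 17, APOC2 in 13, FITM2 in 15 and APOH in 13 (adjusted p up to 0.0818, 0.143, 0.18 and 0.243).

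Of 28 genes of gluconeogenesis and lactate use, 6 rose and 0 fell (21.4%, against 5.12% of all genes), with a median log2 change of 0.16. PC, the pyruvate carboxylase that feeds pyruvate into gluconeogenesis, ran from 10.83 to 11.42 in the HIGH 9 d arrays (median 11.18), against 9.83, 9.97, 9.77, 10.12 and 10.17 in the HIGH -8 d arrays. Every cow was higher at 9 d, by 1.00 to 1.33, and the groups did not overlap (log2 change 1.17, SE 0.16, adjusted p = 0.000178). LDHB, the lactate dehydrogenase subunit of oxidative tissues, averaged 13.49 ± 0.24 at 9 d and 12.84 ± 0.12 at -8 d (log2 change 0.65, SE 0.10, adjusted p = 0.000515). LDHA rose by 1.07 (adjusted p = 0.00602), but a second probe set for LDHA changed by -0.10. Malate dehydrogenase MDH2 (0.31, adjusted p = 0.0127), glycerol kinase GK (0.81, adjusted p = 0.0302) and PGK1 of glycolysis (0.28, adjusted p = 0.0358) were the others. A second PC probe set changed by 0.36 without passing. PCK1, the cytosolic phosphoenolpyruvate carboxykinase, was near the top of the scale on both days, 14.02 at 9 d and 14.09 at -8 d, and did not pass (-0.06, adjusted p = 0.653). G6PC1, which releases glucose, did not pass (0.13, adjusted p = 0.706). PC averaged 9.97 at -8 d, 11.52 at 1 d and 11.14 at 9 d. GK lost its call in 9 of 17 fits that left out 1 array or cow (adjusted p up to 0.155), PGK1 in 14 (up to 0.163) and MDH2 in 4 (up to 0.098).

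Of 20 citric acid cycle genes 5 rose and 0 fell (25.0%, against 5.12% of all genes). The isocitrate dehydrogenases IDH3A (log2 change 0.84, SE 0.14, adjusted p = 0.000855) and IDH2 (log2 change 0.84, SE 0.17, adjusted p = 0.00438) changed most. OGDH, of the oxoglutarate dehydrogenase complex, rose by 0.61 (adjusted p = 0.0111). Citrate synthase CS rose by 0.52 (adjusted p = 0.0176), with a second probe set at -0.09, and lost its call in 6 of 17 fits that left out 1 array or cow (adjusted p up to 0.111). Of 52 oxidative phosphorylation genes 5 rose and 0 fell (9.62%, against 5.12% of all genes), with a median of 0.10. At 1 d against -8 d 26 of them rose and 2 fell (53.8%, against 21.6% of all genes). UQCRB, of the cytochrome bc1 complex, averaged 11.88 ± 0.22 at 9 d and 11.48 ± 0.06 at -8 d (log2 change 0.40, SE 0.09, adjusted p = 0.00851). Of 67 mitochondrial ribosomal proteins, a family added after values were seen, 4 rose and 0 fell, beside 3.87% of all genes that rose. MRPS17 rose by 0.54 (adjusted p = 0.00102). Without cow 462 0 of the 52 oxidative phosphorylation genes passed, and without cow 439 2 of the 20 citric acid cycle genes did.

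Few genes of fatty acid oxidation passed. Of 25 measured, 3 rose and 0 fell, with a median of 0.13. ACADVL, the first dehydrogenase for long chains, averaged 11.56 ± 0.22 at 9 d and 11.13 ± 0.11 at -8 d (log2 change 0.43, SE 0.10, adjusted p = 0.0107). ABCD3, a peroxisomal fatty acid transporter (0.41, adjusted p = 0.01), and the carnitine transporter SLC22A5 (0.62, adjusted p = 0.0337) were the others. SLC22A5 lost its call in 13 of 17 fits that left out 1 array or cow (adjusted p up to 0.162). A second SLC22A5 probe set, at 0.03, did not pass. Of 18 PPAR-alpha targets and fasting genes 2 rose and 0 fell (11.1%), and 15 lay above 0. The 2 were ACADVL and PPARGC1A, the coactivator that raises gluconeogenic and mitochondrial genes (log2 change 0.80, SE 0.19, adjusted p = 0.013). All 4 PPARGC1A probe sets rose. ANGPTL4, an inhibitor of lipoprotein lipase, changed by 0.84 without passing (adjusted p = 0.0599). PDK4, which shuts pyruvate out of oxidation (-0.03, adjusted p = 0.973), VNN1 (0.57, adjusted p = 0.401) and the lipid droplet protein PLIN2 (0.59, adjusted p = 0.109) did not pass. Of 2 measured ketogenesis genes 0 passed with limma, and 1 was higher at an unadjusted p under 0.05. Without cow 462 0 of the 25 oxidation genes passed, and without cow 439 0 of the 18 PPAR-alpha genes did.

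The binding proteins of insulin-like growth factor moved in opposite directions. Of 17 genes of the growth hormone axis 1 rose and 2 fell (17.6%, against 5.12% of all genes). IGFBP2, a binding protein that rises in fasting, ran from 11.34 to 12.09 in the HIGH 9 d arrays (median 11.46), against 10.35, 9.79, 9.90, 10.39 and 10.04 in the HIGH -8 d arrays. Its groups did not overlap (log2 change 1.48, SE 0.18, adjusted p = 3.21e-05), and it passed in every fit that left out 1 array or cow. IGFBP3, the main carrier of insulin-like growth factor in plasma, ran from 10.14 to 10.63 in the HIGH 9 d arrays (median 10.30), against 10.96, 10.98, 11.35, 11.53 and 11.12 in the HIGH -8 d arrays. All its 9 d values lay below its -8 d values (log2 change -0.81, SE 0.16, adjusted p = 0.00349), and it too passed in every such fit. SOCS3, an inhibitor of cytokine signals, fell by 0.39 (adjusted p = 0.0405) from dim values and lost its call in 14 of 17 fits that left out 1 array or cow (adjusted p up to 0.175). The hormone gene IGF1 changed by -0.34 (adjusted p = 0.104) and the growth hormone receptor GHR by -0.65 (adjusted p = 0.124), neither past the threshold. IGFALS, the third protein of the plasma complex, changed by -0.79 and also did not pass (adjusted p = 0.0511). At 1 d these 3 had fallen against -8 d, IGF1 by 0.56, GHR by 0.78 and IGFALS by 1.65. Of 13 insulin signalling and glucose handling genes 0 passed with limma. At an unadjusted p under 0.05 5 of them were lower and 0 higher, while 20.4% of all genes reached it in either direction.

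A list of 18 genes held plasma proteins that are lowered in the acute phase or carry hormones, and also the thyroid hormone enzyme DIO1. Of the 18, 4 fell, DIO1 among them, and 1, APOA1, rose (27.8%, against 5.12% of all genes). TTR, transthyretin, ran from 14.04 to 14.27 in the HIGH 9 d arrays (median 14.15), against 14.37, 14.40, 14.32, 14.36 and 14.29 in the HIGH -8 d arrays. The groups did not overlap although the step was small, at the bright end of the scale (log2 change -0.21, SE 0.04, adjusted p = 0.00728). SERPINA7, the thyroxine-binding globulin, averaged 11.71 ± 0.27 at 9 d and 12.20 ± 0.10 at -8 d (log2 change -0.47, SE 0.10, adjusted p = 0.00827). DIO1, the deiodinase that activates thyroid hormone, ran from 9.95 to 11.82 in the HIGH 9 d arrays (median 11.10), against 11.71, 12.21, 12.37, 12.18 and 11.86 in the HIGH -8 d arrays. It was lower in 4 of 5 cows (log2 change -1.10, SE 0.23, adjusted p = 0.00462). SERPINA6, the cortisol carrier, changed by -0.91 and did not pass (adjusted p = 0.176). SERPINA6 averaged 9.62 at -8 d, 7.62 at 1 d and 8.70 at 9 d. At 1 d against -8 d 11 of the 18 fell and 1 rose (66.7%, against 21.6% of all genes). Without cow 439 2 of the 18 fell at 9 d.

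Of 37 measured complement, coagulation and lectin genes, 0 rose and 4 fell (10.8%, against 5.12% of all genes). Of the 37, 7 lay above 0, with a median of -0.06. CGN1, conglutinin, a collectin of cattle that binds sugars on microbes, ran from 9.38 to 12.24 in the HIGH 9 d arrays (median 11.41), against 13.43, 12.56, 12.71, 12.42 and 12.82 in the HIGH -8 d arrays. All its 9 d values were below the -8 d values (log2 change -1.85, SE 0.42, adjusted p = 0.00989) and they spread more widely, with an SD of 1.28 at 9 d and 0.39 at -8 d. The anticoagulant protein C gene PROC (-0.34, adjusted p = 0.0103), coagulation factor F10 (-0.31, adjusted p = 0.0137) and the mannose-binding lectin MBL1 (-0.59, adjusted p = 0.035) fell too. CGN1 averaged 12.79 at -8 d, 10.78 at 1 d and 10.98 at 9 d. Without cow 439 1 of the 37 fell. CGN1 lost its call in 2 of 17 fits that left out 1 array or cow (adjusted p up to 0.0634), and MBL1 in 12 (up to 0.149).

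Of 26 measured acute phase proteins, 2 rose and 0 fell at 9 d against -8 d (7.69%, against 5.12% of all genes), with a median of 0.06. At 1 d against -8 d 18 rose and 2 fell (76.9%, against 21.6% of all genes). HP, haptoglobin, which binds free haemoglobin, ran from 11.17 to 14.10 in the HIGH 9 d arrays (median 13.47), against 8.08, 7.23, 9.95, 9.10 and 13.68 in the HIGH -8 d arrays. The groups overlapped, because cow 529 already had 13.68 at -8 d, and HP was higher at 9 d in all 5 cows (log2 change 3.39, SE 0.89, adjusted p = 0.0276). ITIH3, an inter-alpha-trypsin inhibitor heavy chain, rose by 0.94 (adjusted p = 0.0219). SAA3, a serum amyloid A (0.40, adjusted p = 0.687), and the lipopolysaccharide-binding protein LBP (0.56, adjusted p = 0.442) did not pass. SAA3 averaged 8.48 at -8 d, 11.26 at 1 d and 8.85 at 9 d. HP lost its call in 13 of 17 fits that left out 1 array or cow (adjusted p up to 0.167) and ITIH3 in 5 (up to 0.101).

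Other lists with many calls at 1 d held fewer or none at 9 d, when fewer of all genes were called. The test called 5.12% of all genes at 9 d and 21.6% at 1 d, each against -8 d. Counts of these lists at an unadjusted p under 0.05 are to be read against the 20.4% of all genes that reached it at 9 d. Of 26 interferon-stimulated genes 0 passed with limma, 1 higher and 4 lower at an unadjusted p under 0.05; at 1 d 13 had risen and 0 fallen. Their mean change at 9 d was -0.79 in cow 460 and between -0.30 and 0.10 in the other cows. Of 33 detoxification enzymes 0 passed with limma at 9 d, 1 higher and 5 lower at an unadjusted p under 0.05; at 1 d 17 had fallen and 0 risen. Of 24 endoplasmic reticulum chaperones 3 rose and 0 fell (12.5%), and 23 lay above 0. At 1 d 23 had risen. P4HB, a protein disulfide isomerase, averaged 13.09 ± 0.24 at 9 d and 12.68 ± 0.10 at -8 d (log2 change 0.41, SE 0.09, adjusted p = 0.00684). SSR3, of the translocon-associated complex (0.61, adjusted p = 0.0135), and the chaperone calnexin, CANX (0.40, adjusted p = 0.0248), were the others, and CANX lost its call in 9 of 17 fits that left out 1 array or cow (adjusted p up to 0.146). Without cow 462 0 of the 24 passed. Of 20 ATF4 and amino acid response genes 0 passed with limma at 9 d, 2 higher and 2 lower at an unadjusted p under 0.05. Of 51 cytosolic ribosomal proteins 0 passed and 0 had an unadjusted p under 0.05.

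**Figure D3:**
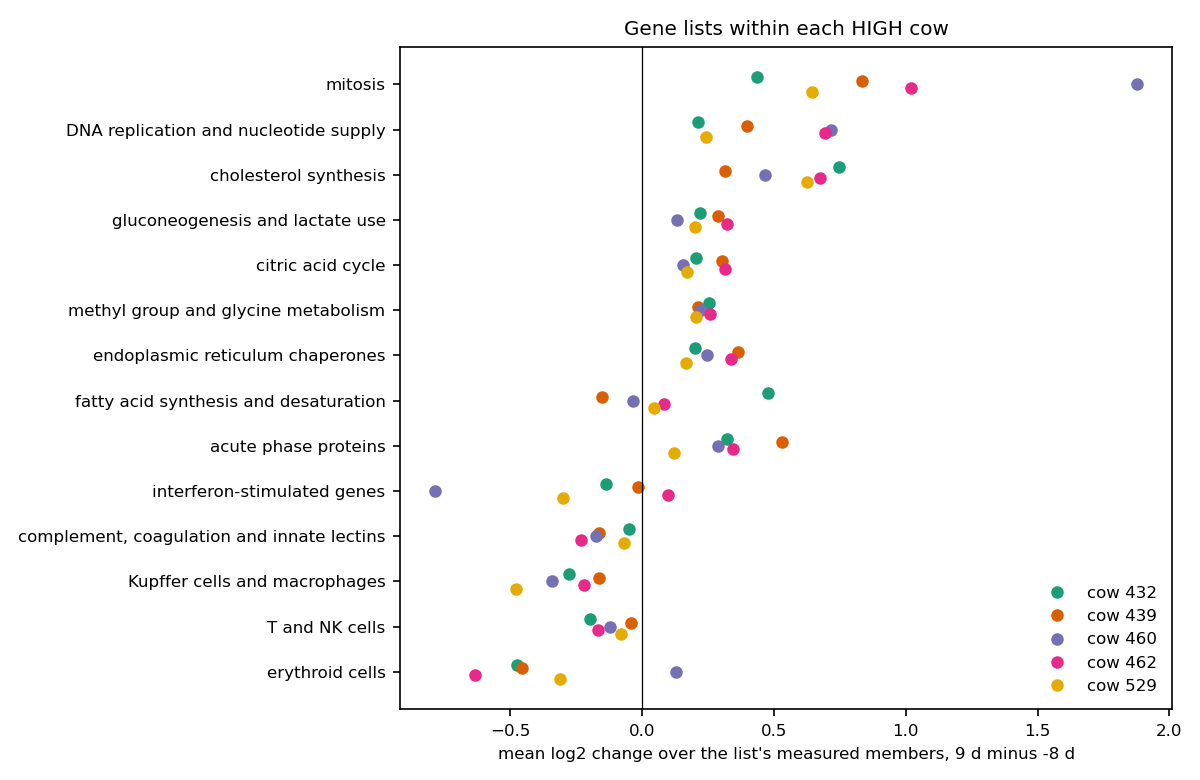
Mean log2 change over the measured members of 14 gene lists (horizontal axis, 9 d minus -8 d) in each of the 5 HIGH cows with both days, 1 point per cow. Mitosis and cholesterol synthesis were above 0 in every cow, with cow 460 farthest out for mitosis (1.88) and for interferon-stimulated genes (-0.79).

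Immediate early and stress feedback genes encode regulators that respond quickly to signals. Of 26 measured, 5 fell and 1 rose (23.1%, against 5.12% of all genes), 11 lay above 0, and the median log2 change was -0.09. The mean over the list was higher at 9 d in cows 432 (0.18) and 460 (0.07) and lower in the other 3 cows. The 5 genes that fell were among the 15 largest falls of genes that were lower at 9 d in all 5 cows with both days, a condition that HBB, which fell by 2.21, and DIO1 did not meet. GADD45B, a growth arrest and stress gene, ran from 7.34 to 8.46 in the HIGH 9 d arrays (median 7.71), against 8.89, 10.57, 9.64, 9.87 and 10.09 in the HIGH -8 d arrays. The groups were apart (log2 change -1.97, SE 0.46, adjusted p = 0.0132), a value 3.92-fold lower at 9 d. BHLHE40, a repressor of the circadian clock, ran from 7.12 to 8.29 in the HIGH 9 d arrays (median 7.89), against 9.10 to 10.01 in the HIGH -8 d arrays (median 9.30). It fell in every cow, by 1.19 to 2.89 (log2 change -1.70, SE 0.27, adjusted p = 0.00055). ZFP36, which speeds decay of cytokine RNAs, averaged 8.10 ± 0.35 at 9 d and 9.02 ± 0.18 at -8 d (log2 change -0.91, SE 0.17, adjusted p = 0.00282). Second probe sets of BHLHE40 (-0.41) and of RGS16 and KLF10 (-0.44 and -0.84) did not pass. RGS16, a brake on G protein signals (-0.95, adjusted p = 0.0171), and KLF10, an early-response transcription factor (-0.92, adjusted p = 0.03), fell with overlapping groups. HSPA1A, an inducible heat shock protein, was the member that rose (log2 change 0.80, SE 0.18, adjusted p = 0.0097). The hour of the biopsies is not given in the sources used here. GADD45B lost its call in 3 of 17 fits that left out 1 array or cow (adjusted p up to 0.0742), RGS16 in 6 (up to 0.0847) and KLF10 in 9 (up to 0.176). Without cow 529 2 of the 26 fell.

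**Figure D4:**
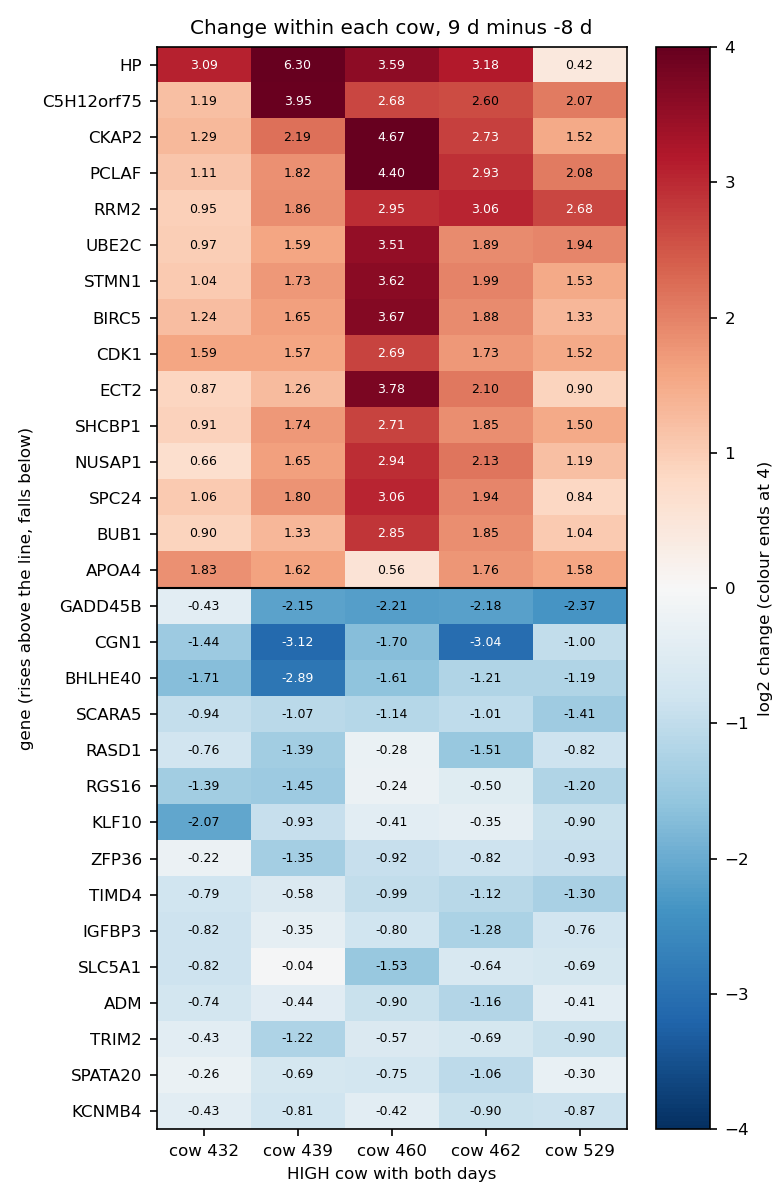
Log2 change (9 d minus -8 d, printed and coloured, colour ends at 4) of the 15 largest rises (above the line) and the 15 largest falls (below), among genes with 1 direction in all 5 cows, in each of the 5 HIGH cows with both days. Cow 460 had the largest change of the 5 cows for CKAP2 (4.67), and HP ran from 0.42 in cow 529 to 6.30 in cow 439.

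Among the other large falls were genes of signalling and uptake. SCARA5, a scavenger receptor that takes up ferritin, ran from 5.62 to 6.37 in the HIGH 9 d arrays (median 5.88), against 6.92, 6.84, 7.51, 6.63 and 7.46 in the HIGH -8 d arrays. Every 9 d value of SCARA5 was below its -8 d values (log2 change -1.14, SE 0.24, adjusted p = 0.00619). RASD1, a small G protein induced by glucocorticoid, averaged 6.30 ± 0.24 at 9 d and 7.33 ± 0.63 at -8 d (log2 change -1.01, SE 0.20, adjusted p = 0.00405). ADM, the vasodilator adrenomedullin (-0.77, adjusted p = 0.0144), the ubiquitin ligase TRIM2 (-0.76, adjusted p = 0.00669) and the potassium channel subunit KCNMB4 (-0.73, adjusted p = 0.000855) fell with groups apart. SLC5A1, the sodium-glucose cotransporter (-0.77, adjusted p = 0.0485), and SPATA20 (-0.74, adjusted p = 0.0422) fell less firmly, losing their calls in 13 and 14 of 17 fits that left out 1 array or cow (adjusted p up to 0.211 and 0.178). ADM lost its call in 3 of them (up to 0.11). Chosen after their values were seen, HLF, a circadian transcription factor (-0.48, adjusted p = 0.00737), FGFR4, the hepatocyte receptor for a gut fibroblast growth factor (-0.39, adjusted p = 0.0205), and BTG1, a brake on proliferation (-0.69, adjusted p = 0.00578), fell as well.

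Of 30 oxidative stress defence genes 5 rose and 1 fell, with a median of 0.10. GPX4, the peroxidase of membrane lipids, ran from 10.44 to 10.84 in the HIGH 9 d arrays (median 10.67), against 9.89, 9.87, 9.88, 9.89 and 9.86 in the HIGH -8 d arrays. The -8 d values lay within 0.03 of each other and all 9 d values were above them (log2 change 0.79, SE 0.10, adjusted p = 5.97e-05). SRXN1, which repairs oxidised peroxiredoxins (0.87, adjusted p = 0.0176), GCLM, of glutathione synthesis (0.39, adjusted p = 0.0395), and PRDX4 of the endoplasmic reticulum (0.37, adjusted p = 0.049) rose. GPX3, the plasma peroxidase, averaged 4.29 at -8 d, 9.13 at 1 d and 5.45 at 9 d, and was still higher at 9 d (log2 change 1.18, SE 0.34, adjusted p = 0.0422). FTH1, ferritin heavy chain, fell by 0.14 (adjusted p = 0.0164) at the bright end of the scale. GPX4 passed in every fit that left out 1 array or cow. GPX3 lost its call in 14 of the 17, GCLM in 14, PRDX4 in 15, SRXN1 in 5 and FTH1 in 4 (adjusted p up to 0.221, 0.154, 0.184, 0.0732 and 0.0842).

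In nitrogen metabolism single enzymes changed. Of 28 urea cycle and amino acid genes 2 rose and 1 fell (10.7%, against 5.12% of all genes). ARG1, the last enzyme of the urea cycle, ran from 13.37 to 13.74 in the HIGH 9 d arrays (median 13.70), against 13.06, 12.97, 12.76, 13.15 and 12.88 in the HIGH -8 d arrays. All 9 d values of ARG1 exceeded its -8 d values (log2 change 0.64, SE 0.12, adjusted p = 0.00299). ASS1, which makes argininosuccinate, rose by 0.20 (adjusted p = 0.0461), and OTC, which makes citrulline, fell by 0.46 (adjusted p = 0.0481). Of 18 genes of methyl group and glycine metabolism 3 rose and 0 fell (16.7%). CBS, which removes homocysteine, averaged 8.85 ± 0.11 at 9 d and 8.32 ± 0.10 at -8 d (log2 change 0.53, SE 0.11, adjusted p = 0.00701). AMT, of glycine cleavage (0.73, adjusted p = 0.01), and MAT1A, which makes the methyl donor of the liver (0.46, adjusted p = 0.0267), rose too. BHMT, which remethylates homocysteine, did not pass (0.57, adjusted p = 0.0849). ASS1 and OTC each lost their calls in 14 of 17 fits that left out 1 array or cow (adjusted p up to 0.17 and 0.164), and MAT1A in 8 (up to 0.109).

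Few markers of other liver cells passed the test. Of 11 Kupffer cell and macrophage markers 0 rose, 1 fell and 0 lay above 0, with a median of -0.21. The mean of the list was 9.36 to 9.98 at 9 d, against 9.84 to 10.20 at -8 d, and it was lower in all 5 cows. TIMD4, a receptor of resident macrophages for dying cells, ran from 6.65 to 7.86 in the HIGH 9 d arrays (median 7.58), against 8.31, 8.21, 8.85, 8.34 and 7.95 in the HIGH -8 d arrays. Its groups did not overlap (log2 change -0.90, SE 0.22, adjusted p = 0.019), and it lost its call in 7 of 17 fits that left out 1 array or cow (adjusted p up to 0.101). Of 18 T and NK cell markers 0 passed with limma, 0 had an unadjusted p under 0.05 and 0 lay above 0, with a median of -0.13. Of 15 antigen presentation genes 0 passed with limma and 14 lay below 0, with a median of -0.24. The mean of that list was lower in all 5 cows, by 0.10 to 0.41. At an unadjusted p under 0.05 5 were lower and 0 higher, while 20.4% of all genes reached it in either direction. Of 8 neutrophil markers and of 6 B and plasma cell markers 0 passed with limma and 0 had an unadjusted p under 0.05. The part of immune cell content in the results was not tested.

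One erythroid marker of 7 fell, the beta globin gene HBB. HBB ran from 5.51 to 6.30 in the HIGH 9 d arrays (median 5.86), against 8.59, 7.86, 5.72, 9.68 and 8.50 in the HIGH -8 d arrays. It was lower in 4 of 5 cows and hardly differed in cow 460 (log2 change -2.21, SE 0.46, adjusted p = 0.0048). Of its 4 probe sets 1 passed, and globin genes are near copies that share sequence. HBG, a globin gene outside the list and chosen after its value was seen, also fell (-0.43, adjusted p = 0.034). Of the 3 HBG probe sets 2 fell, and HBG was lower in 4 of 5 cows. The summed level of the 7 markers was 7.19 to 7.48 on the log2 scale at 9 d, against 7.25 to 9.86 at -8 d, and the part of blood in the biopsies was not tested. HBB lost its call without cow 462. Of 14 stellate cell and fibroblast markers 0 passed with limma and 2 were lower at an unadjusted p under 0.05. Of 15 endothelial markers 0 passed with limma and 1 was higher at an unadjusted p under 0.05, and of 7 cholangiocyte markers 0 passed and 1 was lower, against the 20.4% of all genes at that p. Their summed levels overlapped between the days.

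The same days in cows on the controlled-energy diet gave fewer calls, and no gene was shown to differ between the diets. In CON cows the test called 441 of 24016 probe sets over these days (1.84%). Of those, 252 were higher at 9 d (1.05%) and 189 lower (0.787%). By gene it called 243 of 9155 (2.65%), with 151 higher (1.65%) and 92 lower (1.0%). Of the 354 genes that rose in HIGH cows, 351 had a CON change above 0, and of the 115 that fell, 110 had one below 0. The HIGH and CON comparisons use different cows and share the one estimate of spread. In CON cows 18 of 35 mitosis genes, 8 of 42 replication genes and 5 of 17 cholesterol synthesis genes rose. Some other lists had medians of opposite sign in the 2 diets. Of the 24 endoplasmic reticulum chaperones 23 lay above 0 in HIGH cows (3 rose, median 0.21) and 6 in CON cows (0 rose, median -0.12), and HIGH minus CON change was above 0 for all 24. Of the 26 interferon-stimulated genes 6 lay above 0 in HIGH cows (median -0.14) and 15 in CON cows (median 0.06). Of the 11 Kupffer cell and macrophage markers 0 lay above 0 in HIGH cows (median -0.21) and 7 in CON cows (median 0.08). The CON cows themselves were mixed, with the chaperone mean higher at 9 d in 2 of 5 and the macrophage mean higher in 2 of 5. The differences of these lists between the diets were not tested. CKAP2 changed by 2.52 in HIGH cows and 2.12 in CON cows, IGFBP2 by 1.48 and 1.38, and CGN1 by -1.85 and -2.16. The test of the difference itself, HIGH change minus CON change, passed for 0 of 24016 probe sets with limma (0.0%). At an unadjusted p under 0.05 there were 789 (3.29%).

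**Figure D5:**
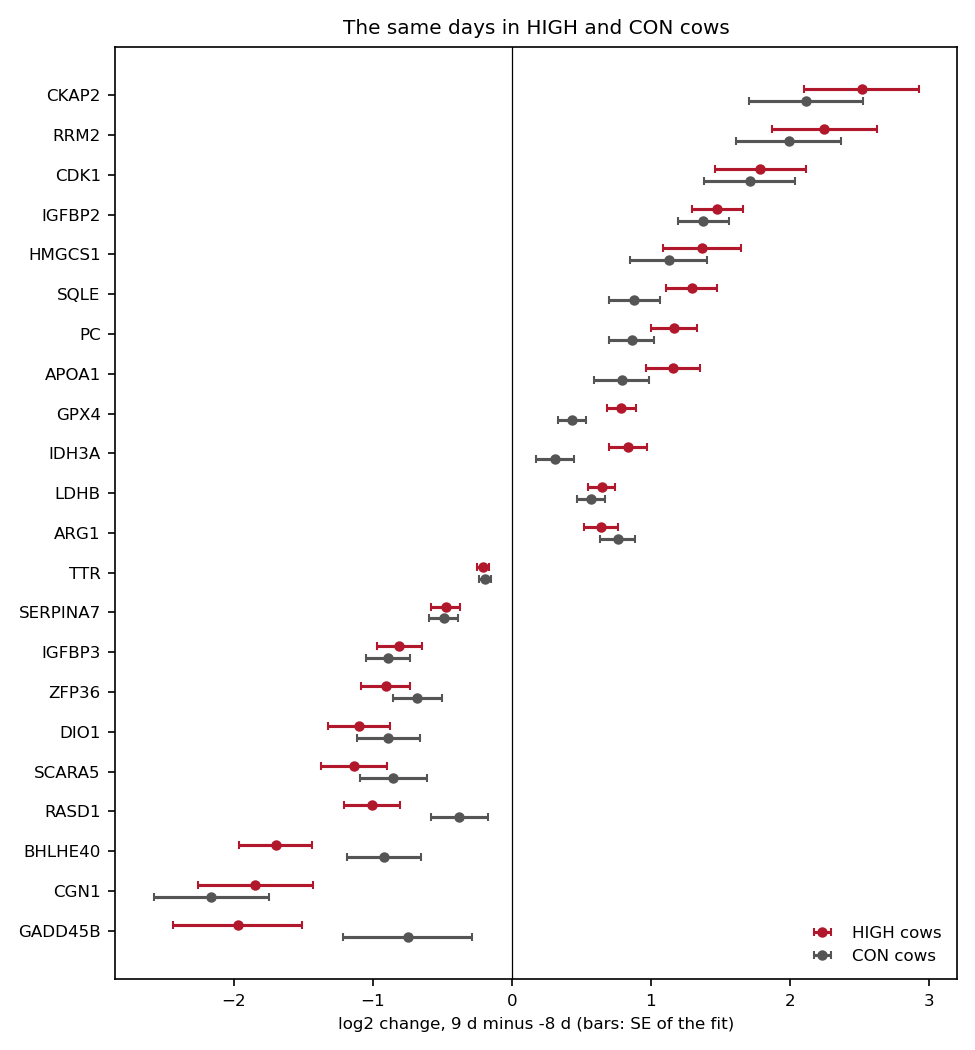
Log2 change at 9 d against -8 d of 22 genes in HIGH cows (red, upper point of each pair) and CON cows (grey), with bars for the SE of the fit. Both diets lie on the same side of 0 for all 22 genes.

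For the genes described most fully the interval of the diet difference was wide. HIGH minus CON change was 0.40 (95% interval -0.79 to 1.59, unadjusted p = 0.496) for CKAP2 and 0.26 (95% interval -0.83 to 1.34, unadjusted p = 0.631) for RRM2. It was 0.41 (95% interval -0.11 to 0.94, unadjusted p = 0.12) for SQLE and 0.31 (95% interval -0.17 to 0.78, unadjusted p = 0.199) for PC. GADD45B, which fell in HIGH cows, gave -1.22 (95% interval -2.56 to 0.12, unadjusted p = 0.0718). IDH3A gave 0.53 (95% interval 0.13 to 0.93, unadjusted p = 0.0112) and GPX4 0.36 (95% interval 0.06 to 0.65, unadjusted p = 0.0198), and none of these passed after adjustment. The 5 genes with the smallest p for the difference were HEY1, PDYN, CLDN10, CERS4 and COL10A1, all with an adjusted p of 1.0. HEY1, a target of Notch signals, averaged 3.69 ± 0.10 at 9 d and 4.04 ± 0.23 at -8 d in HIGH cows (log2 change -0.35, SE 0.07, adjusted p = 0.00652), and its change was 0.08 in CON cows.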

How the data were processed

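Liver RNA was hybridised to Affymetrix bovine arrays. As deposited by the authors, the values are on a log2 scale, produced by RMA in Affymetrix Expression Console 1.1 per the submitters' processing notes. Further settings are not given in the sources used here. RMA forces the arrays onto 1 distribution, so a change is measured against most other probe sets, and changes at both ends of the scale are compressed. Precision is limited by how many arrays there are.

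The table held 24128 probe sets; its 112 controls were dropped and none was filtered on level. The array annotation gave 1 gene symbol to 13292 probe sets (9155 genes), several to 86 and none to 10638. Where a gene had several, the brightest on average across the 32 arrays stood for it. limma 3.58.1 in R 4.3.3 fitted 6 group means to all 32 arrays, treating cow as a random block (estimated correlation 0.138; 26 residual degrees of freedom) and a mean-variance trend. Tests were two-sided, and p was adjusted by Benjamini-Hochberg over 24016 probe sets. Changes and SE are from that fit and can differ slightly from differences of group means. The fit was tested on simulated data.

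The pairing comes from the cow numbers in the labels: deviations of the same cow from the group means at 9 d and -8 d correlated with a mean r of 0.362 (0.272 to 0.464, 5 pairs), against -0.0722 for other cows (25 pairs). Cows are separate animals, with 1 array each per day. Genes were named from the 15 largest rises and 15 largest falls with 1 direction in all 5 paired cows. They also came from up to 6 members with the smallest p in each of 37 gene lists. Added were 5 genes of smallest p in the diet by time test and 42 measured genes of a list of 46. Not all of these genes are described in the text. The members and lists were chosen with earlier results of these data known. Genes and families said to be chosen after their values were seen fall outside this rule. Alternatives were no block, a fixed block, only the HIGH arrays, filters on level, renormalisation, other variance settings, array weights, a second probe set and leaving out each array and cow. No sequences were used here.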

Additional observations from a re-analysis of the deposited data

Results flagged for a closer look

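In 13 of 138 groups of 5 or 6 values (9.42%; 69 genes on 2 days) the highest or lowest cow stood far from the others of its group; chance gives about 1 in 20. At 9 d cow 460 had ECT2, the cytokinesis activator, at 7.69, against 5.82 to 6.47 in the other cows. Cow 462 had KLF10 at 8.92, against 7.61 to 8.02. Cow 529 had CERS4, a ceramide synthase, at 5.66, against 5.47 to 5.54. Cow 432 had SQLE at 12.03, against 11.67 to 11.79, and GHR at 10.87, against 9.53 to 9.88. Cow 512 had PPARGC1A at 9.00, against 8.40 to 8.53, and cow 439 had BHMT at 12.02, against 12.53 to 12.83. At -8 d cow 432 had SPATA20 at 9.74, against 9.21 to 9.36, and FASN at 7.60, against 7.86 to 7.96. Cow 529 had SQLE at 10.07, against 10.52 to 10.66. Cow 462 had THRSP at 7.22, against 8.23 to 8.62, and PLIN2 at 7.07, against 7.50 to 7.59. Cow 439 had CYP7A1 at 11.43, against 10.57 to 10.80. Each of the 6 cows was the extreme one at least once at 9 d, and none of the 11 arrays held more than 2 of the 13.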

How the results depend on the processing

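The count of 855 probe sets that changed at HIGH 9 d against HIGH -8 d depended on the settings. It was 529 with no replicate block, 874 with cow as a fixed block, 1347 with only the 11 HIGH arrays and 1474 with array quality weights. Leaving out 1 array or cow gave 314 to 937, with fewer samples in each such fit. The count was 314 without cow 462, 400 without cow 460, 405 without cow 439 and 555 without cow 529. It was 482 to 542 without 1 array of cow 432, 460 or 462 at -8 d or of cow 439 or 462 at 9 d. For CON 9 d against CON -8 d the count of 441 became 192 with no replicate block and 727 with array quality weights. For HIGH 9 d against HIGH 1 d the 2195 became 1331 to 2233 with 1 array or cow left out, 1331 without cow 529 and 1375 without cow 439. The diet by time count was 0 in every alternative run. The causes were not tested. A second probe set of LDHA changed by -0.096 and one of CS by -0.0892, against the direction of the probe sets used. Of 98 named genes past the threshold, 69 passed in every alternative with all arrays of the comparison, 39 also without each array and cow, and 0 changed sign in a refit. With 1 array or cow left out, ECT2, BUB1, TYMS, UQCRB, TTR, SERPINA7, PROC, P4HB and SCARB1 lost their calls in 1 of 17 fits, ABCD3, ACADVL, AMT, OGDH, F10, SSR3, HSPA1A and HEY1 in 2, and PPARGC1A in 3 (adjusted p up to 0.111). CAPN5, EED and KCNMA1, chosen after their values were seen, had probe sets past the threshold in both directions.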

Other observations

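The genes and families here were chosen after their values were seen, and their counts are descriptions beside the 3.87% of all genes that rose. Of 61 genes of the secretory pathway and vesicle coats, 8 rose and 2 fell. KDELR3, which returns chaperones to the endoplasmic reticulum, averaged 9.53 ± 0.41 at 9 d and 8.54 ± 0.35 at -8 d (log2 change 1.01, SE 0.25, adjusted p = 0.0207). PREB, which starts vesicle budding there, rose by 0.56 (adjusted p = 0.0118) and the small G protein ARF4 by 0.54 (adjusted p = 0.0172), whereas SEC16B fell by 0.49 (adjusted p = 0.0429). Of 59 heat shock chaperones 5 rose and 0 fell, among them HSPA8 (0.45, adjusted p = 0.0382) and the mitochondrial TRAP1 (0.44, adjusted p = 0.0171). Translation factors (2 of 50 rose) and proteasome subunits (2 of 37) were near that share, with medians of 0.0038 and 0.0097.

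Of 179 solute carriers 7 rose and 1 fell, a share close to that of all genes. SLC25A4, the mitochondrial exchanger of ADP and ATP, averaged 12.30 ± 0.17 at 9 d and 11.84 ± 0.11 at -8 d (log2 change 0.45, SE 0.08, adjusted p = 0.00173). The mitochondrial citrate carrier SLC25A1 rose by 0.43 (adjusted p = 0.00397) and the long-chain fatty acid importer SLC27A2 by 0.48 (adjusted p = 0.00969). LPCAT3, which places polyunsaturated chains in phospholipids (0.88, adjusted p = 0.00223), and ALDH18A1, of proline synthesis (0.86, adjusted p = 0.00282), rose as well. EGLN3, an oxygen sensor of the hypoxia pathway, averaged 5.80 ± 0.26 at 9 d and 4.69 ± 0.42 at -8 d (adjusted p = 0.00246). LEAP2, a liver peptide that opposes ghrelin in mice, averaged 12.24 ± 0.13 at 9 d and 12.67 ± 0.13 at -8 d, lower at 9 d in all 5 cows with both days (log2 change -0.43, SE 0.12, adjusted p = 0.0333).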
